A study of Sus scrofa with 6 samples.

Results

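The genes described here make the machinery that starts and extends protein chains and that charges transfer RNAs with amino acids. They were chosen by symbol in the array's probe-to-gene annotation: genes whose symbol starts with EIF, EEF, ETF1 or GSPT, without the EIF2AK kinases, and aminoacyl-tRNA synthetases whose symbol ends in ARS or ARS2. Of 6765 genes with a probe set of 1 symbol, 59 met this rule, 41 of them translation factors or their regulators and 18 synthetases, covered by 89 of 23999 probe sets. No ETF1 or GSPT gene, the termination factors, had such a probe set, and neither did EEF1A2, EEF2 or EIF4EBP1, which are not analysed here.

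The series set OBGF400, a line of pig olfactory bulb neuroblasts, against PK15, a pig kidney line labelled non-neuronal and of epithelial origin, which the design used as a somatic background. Neither line was treated, both media held 10% bovine calf serum, and the basal medium differed, with amphotericin B added for PK15 alone. RNA of 9 cultures per line was combined into 3 pools, each hybridised to 1 Affymetrix porcine array, so a p-value here measures the spread between pools of 1 line. Line, medium and any batch of labelling cannot be told apart.

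In eukaryotes, initiation factors bring the small ribosomal subunit with the initiator tRNA to the capped end of an mRNA and carry it to the start codon. The factor eIF2 delivers that tRNA and is recharged with GTP by eIF2B, and stress kinases slow protein synthesis by phosphorylating eIF2. The large complex eIF3 holds the small subunit, and the eIF4 group binds the cap and unwinds the mRNA. Elongation factors then bring charged tRNAs to the ribosome, and each synthetase attaches its amino acid to the matching tRNA, in the cytosol or in mitochondria. In mammals many cytosolic synthetase genes are targets of the transcription factor ATF4, which is made when eIF2 is phosphorylated.

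Values are the deposited log2 signals, and every difference is OBGF400 minus PK15, so 1 unit is a 2-fold change. The lowest value of the table is 2.13, shared by all 6 arrays, and a gene within 0.1 of it on all 3 arrays of a line is said to be at the floor. Probe sets differ in how they bind, so no gene's signal is set against another gene's. A gene was called with an adjusted p under 0.05 (limma, Benjamini-Hochberg over all 6765 genes). Between arrays of the same line the Pearson correlation across genes was at least 0.997, against 0.836 to 0.842 between the lines, and genes are not independent replicates. Among markers of neural cells, UCHL1, NCAM1, THY1 and MAP2 were higher in OBGF400, STMN1 was lower, and GAP43, SNAP25, NEFL and ENO2 were at the floor in both lines. The summed linear signal of 8 mesenchymal markers was 76478 to 79200 on the OBGF400 arrays against 48.3 to 62.5 in PK15, with 7 of 8 called higher. For 10 epithelial markers the sum was 93.7 to 104 in OBGF400 against 81351 to 83617 in PK15, with KRT18, KRT19 and DSP at the floor in OBGF400. Of 5 leukocyte markers 3 were at the floor in OBGF400 and 2 in PK15, while AIF1 was at 10.72 ± 0.11 in PK15 (SD, n = 3). These markers went both ways, with 2 called higher in OBGF400, both at least 2-fold, and 1 called lower. The part of these cell type differences in the results below was not tested.

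Of the 59 genes, 15 were higher in OBGF400, 28 were lower and 16 were not called, with a median difference of -0.25 against -0.002 over all genes. Over all genes 60.8% were called, 23.9% higher and 36.8% lower, and among the 3382 genes above the median signal 81.4% were called, 31.3% higher and 50.1% lower. The corresponding shares here were 25.4% and 47.5%. The share higher was close to that of all genes, and the share lower to that of the brighter genes, those above the median signal. Of the 59 genes, 4 were called at least 2-fold higher and 11 at least 2-fold lower, where 13.8% and 22.0% of all genes were. For 47 of the 59 genes all arrays of OBGF400 lay on the same side of those of PK15, against 66.9% of all genes and 86.7% of the brighter ones. These shares of all genes and of the brighter genes also stand beside the counts of each group below.

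The direction of most of these genes depended on how the arrays were scaled. Scaling on the spiked hybridization controls moved the median of all genes to 0.82, and gave 40 of the 59 genes higher and 10 lower (all genes 66.3% and 18.6%). Scaling on 2 poly-A controls, dap and thr, moved that median to -0.86, and gave 2 higher and 48 lower (all genes 11.3% and 77.1%). This setting is called poly-A control scaling below, and it rests on that pair of controls. The array's other poly-A controls went the opposite way: the mean signal of dap and thr was 0.85 higher in OBGF400, but that of lys differed by -0.31 and that of phe by -0.11, and the hybridization controls by -0.82. Scaling on lys and phe, an alternative added after seeing the data, moved the median of all genes to 0.20 and gave 14 of the 59 genes higher and 13 lower (all genes 24.6% and 27.3%). Of the 59 genes, 43 were called, and 12 kept their call and direction as deposited and under 4 normalizations (quantile, median centring, hybridization and poly-A controls), as 29.8% of all genes did. They were EIF1AY and EIF3B, higher in OBGF400, and EIF2D, EIF5A, IARS2, EIF4EBP2, EIF2A, EIF2B3, EIF2B2, EEF1AKMT1, EIF1AX and EIF2B1, lower in OBGF400. For every other gene the call below is relative to the deposited scaling. A contrast between genes on the same arrays does not change when whole arrays are shifted, and such contrasts are given where members of a complex went opposite ways.

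**Figure D1:**
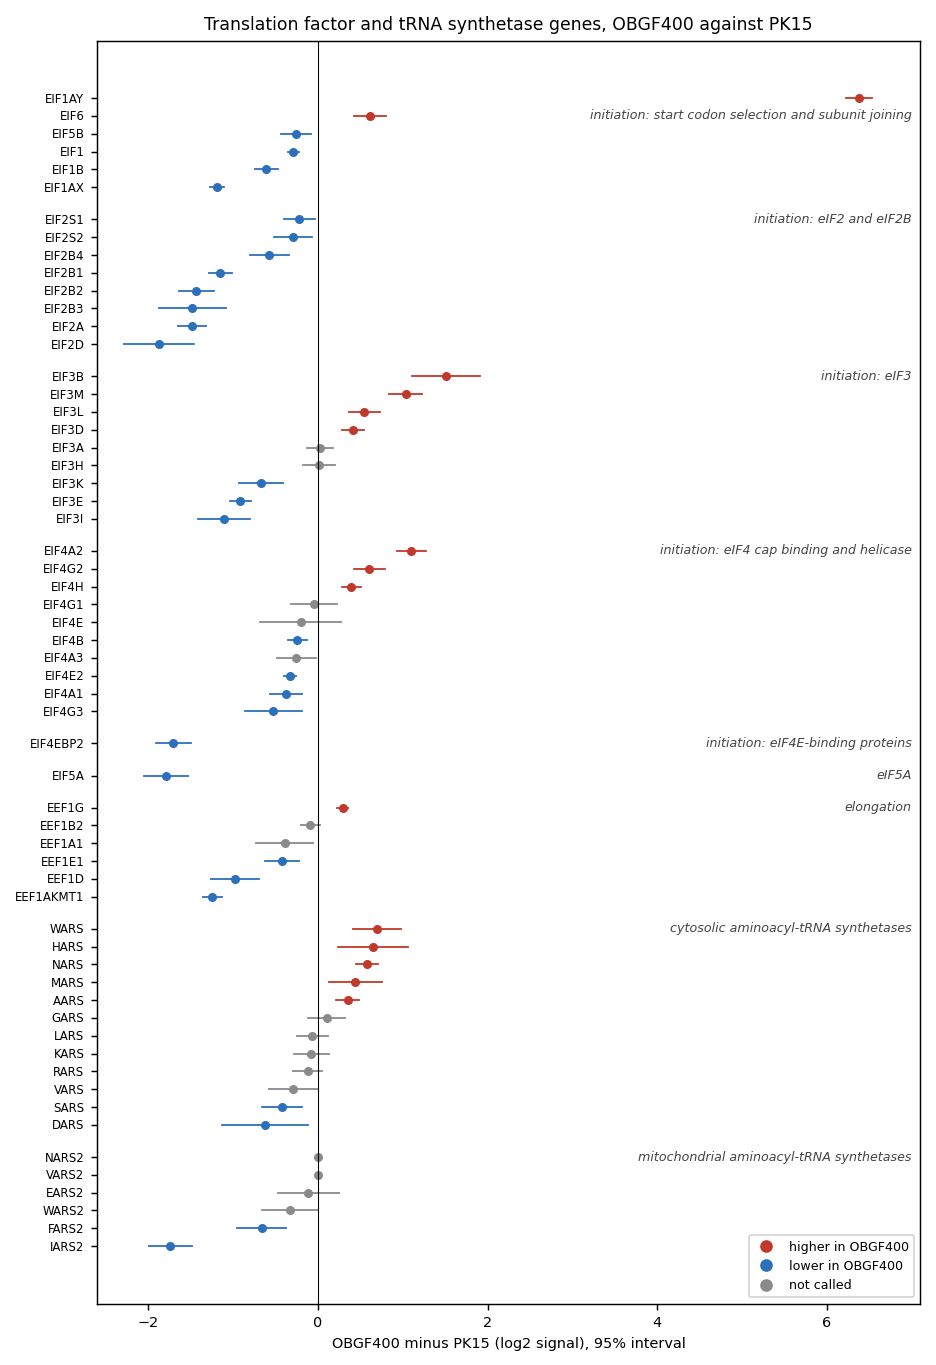
Difference in log2 signal, OBGF400 minus PK15, for each of the 59 genes, grouped by role, with the 95% interval of the limma fit over 3 arrays per line. Colours show the call at an adjusted p under 0.05. EIF1AY stands far to the right at 6.37. All 8 genes of eIF2, eIF2B and the related factors EIF2A and EIF2D lie left of 0. The eIF3 and cytosolic synthetase genes spread to both sides.

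**Figure D2:**
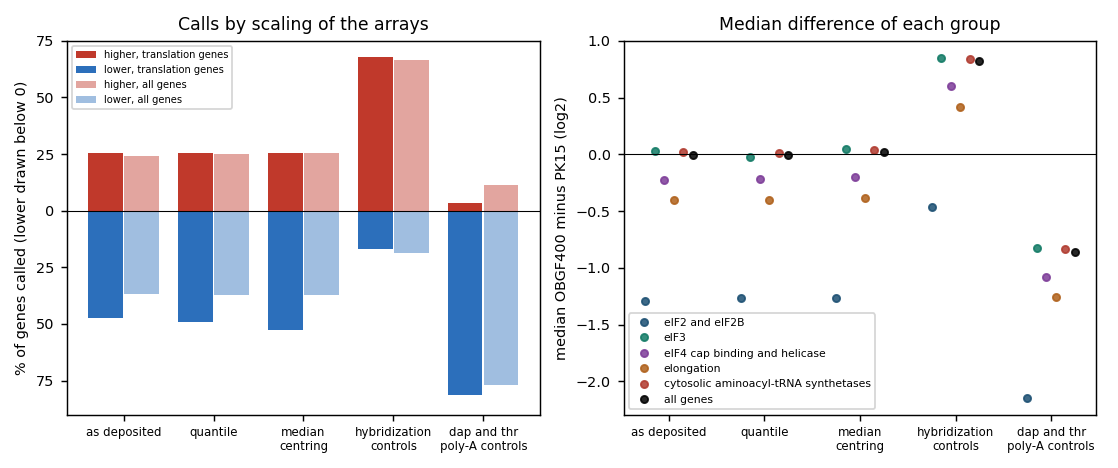
Left, the percentage of genes called higher (above 0) or lower (below 0) in OBGF400 among the 59 translation genes and among all 6765 genes, under the deposited scaling and 4 others. Right, the median OBGF400 minus PK15 difference of 5 groups and of all genes. The eIF2 and eIF2B group includes EIF2A and EIF2D, which are not subunits of either. It is below 0 under each scaling, at -0.47 with hybridization controls and -2.14 with poly-A controls.

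All 8 measured genes of eIF2, eIF2B and the related factors EIF2D and EIF2A were lower in OBGF400. The share lower was 36.8% over all genes and 50.1% over the brighter genes. Of the 8 genes, 5 were at least 2-fold lower, against 22.0% of all genes, and the median over all 8 was -1.29. Under hybridization control scaling 5 were lower and 2 higher, and under poly-A control scaling all 8 were lower. On lys and phe 5 were lower and 0 higher, the median difference being -1.09. eIF2B is the exchange factor that reloads eIF2 with GTP, and 4 of its subunits were measured. EIF2B1, the alpha subunit, had signals of 9.25, 9.13 and 9.28 in OBGF400, against 10.40, 10.31 and 10.40 in PK15. EIF2B2, the beta subunit, was at 9.27, 9.18 and 9.04 in OBGF400 and at 10.52, 10.68 and 10.58 in PK15. EIF2B3, the gamma subunit of the catalytic part, was at 7.67, 7.76 and 7.58 in OBGF400 and at 9.07, 9.44 and 8.95 in PK15. For each of the 3 genes every OBGF400 array lay below every PK15 array, where the arrays did not overlap for 66.9% of all genes. The differences were -1.15 for EIF2B1 (adjusted p = 7.55e-05, limma), -1.43 for EIF2B2 (0.000119) and -1.48 for EIF2B3 (0.000938). EIF2B4, the delta subunit, differed by less, -0.57 (95% interval -0.80 to -0.34, adjusted p = 0.00393), and was 0.25 higher under hybridization control scaling.

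Factors that can bring initiator tRNA to the ribosome outside the main eIF2 route, EIF2D and EIF2A, were also lower. EIF2D, which acts in re-initiation and recycling, had signals of 6.78, 6.81 and 6.65 in OBGF400, against 8.39, 8.92 and 8.55 in PK15. This was a 3.66-fold lower signal, a difference of -1.87 (95% interval -2.29 to -1.46, adjusted p = 0.000496). EIF2A, a tRNA-binding factor distinct from the eIF2 alpha subunit, was at 10.16, 9.97 and 10.15 in OBGF400 and at 11.55, 11.61 and 11.57 in PK15. The groups did not overlap, and the difference was -1.48 (adjusted p = 5.52e-05). Its dimmer probe set differed by -0.75 and was not called over all probe sets (adjusted p = 0.0503).

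The alpha and beta subunits of eIF2 differed little. The gamma subunit, EIF2S3, was probed only together with LOC100624149, by probe sets that differed by 9.07 and -1.98 and cannot be assigned. EIF2S1, the alpha subunit that the stress kinases phosphorylate, was at 12.14, 12.19 and 12.20 in OBGF400 and at 12.33, 12.53 and 12.31 in PK15. The lines were close without overlapping, a difference of -0.22 (adjusted p = 0.0467). EIF2S2, the beta subunit, differed by -0.30 (adjusted p = 0.034). Neither call was stable. Leaving out any OBGF400 array or PK15 replicate 1 ended both, with EIF2S1 then between -0.24 and -0.20 and EIF2S2 between -0.33 and -0.28. Hybridization control scaling gave 0.61 for EIF2S1 and 0.53 for EIF2S2.

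**Figure D3:**
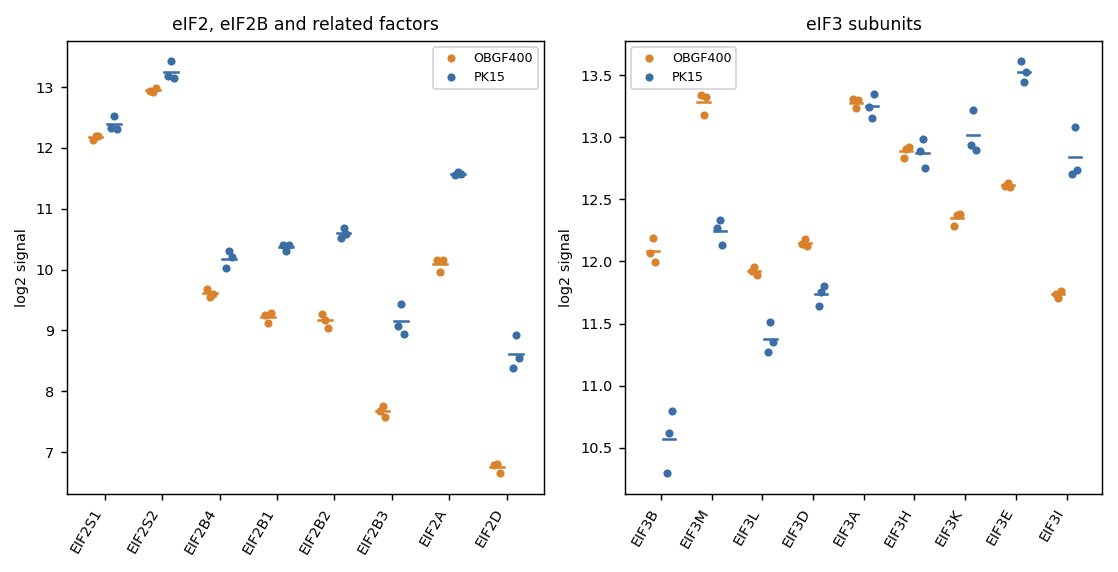
Log2 signal on each array (points) and line mean (bars) for the eIF2, eIF2B and related genes (left) and the eIF3 subunits (right), OBGF400 beside PK15, 3 arrays each. On the left every OBGF400 point lies below every PK15 point of the same gene. On the right EIF3B, EIF3M, EIF3L and EIF3D are higher in OBGF400 and EIF3I, EIF3E and EIF3K lower.

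Subunits of eIF3 went both ways. Of 9 measured, 4 were higher in OBGF400, 3 lower and 2 not called (median difference 0.03.) On hybridization controls 6 were higher with 0 lower, and on poly-A controls 1 higher with 6 lower. EIF3B, a scaffold that binds near the mRNA channel, was at 12.07, 12.19 and 11.99 in OBGF400 and at 10.29, 10.62 and 10.80 in PK15. It was 2.85-fold higher, a difference of 1.51 (95% interval 1.12 to 1.91, adjusted p = 0.000888). EIF3M, a subunit of the core, was at 13.34, 13.18 and 13.32 in OBGF400 and at 12.27, 12.33 and 12.13 in PK15, a difference of 1.04 (adjusted p = 0.000287). Its dimmer probe set differed by 2.63. For both genes all OBGF400 arrays were above all PK15 arrays.

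The subunit EIF3I, which binds EIF3B in the complex, went the other way. Its signals were 11.74, 11.70 and 11.76 in OBGF400, against 12.71, 13.08 and 12.74 in PK15. The difference was -1.11 (95% interval -1.41 to -0.80, adjusted p = 0.00105), with no overlap. The shift of EIF3B relative to EIF3I was 2.62, and that of EIF3M relative to EIF3E, another core subunit, was 1.95, and neither depends on the scaling of whole arrays. EIF3E was lower by -0.91 (adjusted p = 0.000113) and the core subunit EIF3K by -0.67 (0.00377), while EIF3L, also of the core, was higher by 0.55 (0.00208) and EIF3D, which can bind the cap of some mRNAs, by 0.41 (0.00162). EIF3A, the largest scaffold, differed by 0.03 (95% interval -0.12 to 0.18) and EIF3H by 0.01 (-0.17 to 0.20), and neither was called. Under hybridization control scaling EIF3K was at 0.15 and EIF3A and EIF3H were called higher. Under poly-A control scaling EIF3L was at -0.31 and EIF3D at -0.44.

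Among the 10 eIF4 genes of cap binding and mRNA unwinding, 3 were higher in OBGF400, 4 lower and 3 not called (median difference -0.22.) On hybridization controls 9 were higher with 0 lower, and on poly-A controls 0 higher with 8 lower. EIF4A2, a paralog of the eIF4A helicase, was at 13.91, 13.75 and 13.80 in OBGF400 and at 12.81, 12.63 and 12.71 in PK15, with no overlap. It was 2.15-fold higher, a difference of 1.10 (95% interval 0.93 to 1.28, adjusted p = 0.000161), which was no longer called under poly-A control scaling. EIF4A1, the main helicase paralog in many dividing cells, was lower by -0.38 (adjusted p = 0.00846) and at 0.44 under hybridization control scaling. The shift of EIF4A2 relative to EIF4A1 was 1.48, which a shift of whole arrays leaves as it is. EIF4A3, a helicase of the exon junction complex, differed by -0.25 and was not called (adjusted p = 0.0597).

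EIF4E, the cap-binding protein, did not separate the lines. It was at 8.56, 8.33 and 8.71 in OBGF400 and at 8.95, 8.82 and 8.43 in PK15, overlapping, with a difference of -0.20 (95% interval -0.68 to 0.28, adjusted p = 0.422). EIF4E2, a cap-binding homolog that represses translation, was lower by -0.33 (adjusted p = 0.000499). Of the eIF4G scaffolds, EIF4G2, which lacks the eIF4E-binding site, was higher by 0.61 (adjusted p = 0.00133) and EIF4G3 lower by -0.52 (0.0196). Dropping OBGF400 replicate 2 (-0.46) or 3 (-0.51), or PK15 replicate 2 (-0.54), ended the EIF4G3 call. The helicase cofactors split, with EIF4H at 0.39 (adjusted p = 0.00116) and EIF4B at -0.24 (0.0062). Each of these signs turned under the control scaling that opposed it, with EIF4G2 at -0.25 and EIF4H at -0.46 on poly-A controls, and EIF4E2 at 0.49, EIF4G3 at 0.30 and EIF4B at 0.58 on hybridization controls.

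Factors of start codon selection and subunit joining held the largest difference of all 59 genes. EIF1AY, the Y-linked copy of the scanning factor EIF1AX, was at 9.00, 8.86 and 8.80 in OBGF400, against 2.51, 2.51 and 2.52 in PK15. The PK15 arrays lay close to the floor, and the difference of 6.37 (95% interval 6.22 to 6.52, adjusted p = 6.81e-07) fell to 3.75 when 32 was added to the linear values. EIF1AX itself was at 11.18, 11.21 and 11.24 in OBGF400 and at 12.35, 12.40 and 12.46 in PK15. It was thus 2.28-fold lower, a difference of -1.19 (95% interval -1.28 to -1.11, adjusted p = 1.64e-05), with no overlap, and its dimmer probe set differed by -1.39. The copies are close in sequence, and which of their transcripts each probe set binds was not tested. The EIF1AY probe set was near the floor in PK15, where EIF1AX was higher.

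Of the 6 factors of this step, 2 were higher and 4 lower (on hybridization controls 4 higher with 1 lower, on poly-A controls 1 higher with 4 lower), and the others moved by less than 1 unit. EIF1, which guards start codon choice, was lower by -0.29 (adjusted p = 0.000504) and its paralog EIF1B by -0.61 (0.000474), and hybridization control scaling turned both, to 0.53 and 0.22. EIF5B, the GTPase that joins the ribosomal subunits, was lower by -0.26 (adjusted p = 0.025), while another of its probe sets was higher by 0.48 (adjusted p = 0.0172 over all probe sets). Dropping OBGF400 replicate 1 (-0.21) or 3 (-0.28), or PK15 replicate 2 (-0.25) or 3 (-0.22), ended this call. EIF6, which keeps the large subunit from joining too early, was higher by 0.62 (adjusted p = 0.00137) and at -0.24 under poly-A control scaling.

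EIF5A, EIF4EBP2 and EIF4G1, like EIF5B above and the synthetases GARS and SARS below, gave results that depended on the probe set. EIF5A, which helps ribosomes past difficult peptide stretches and carries the amino acid hypusine, was at 10.55, 10.83 and 10.65 in OBGF400 and at 12.37, 12.58 and 12.45 in PK15 by its brighter probe set. That is a difference of -1.79 (95% interval -2.05 to -1.53, adjusted p = 0.000128). Its other probe set was higher, by 0.36 (adjusted p = 0.0442 over all probe sets). EIF4EBP2, which holds eIF4E away from eIF4G until mTOR phosphorylates it, was at 8.14, 8.14 and 8.11 in OBGF400 and at 9.68, 9.95 and 9.87 in PK15 by the probe set used, a difference of -1.70 (adjusted p = 7.21e-05). Of its 4 other probe sets, 1 was also lower (-0.52), 2 were higher (1.14 and 0.89) and 1 was near the floor in both lines. The mean of all 5 probe sets differed by -0.04 and was not called. EIF4G1, the main eIF4G scaffold, did not differ by its brighter probe set (-0.04, 95% interval -0.31 to 0.23), but its other probe set was higher by 3.43 (adjusted p = 0.000574 over all probe sets).

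**Figure D4:**
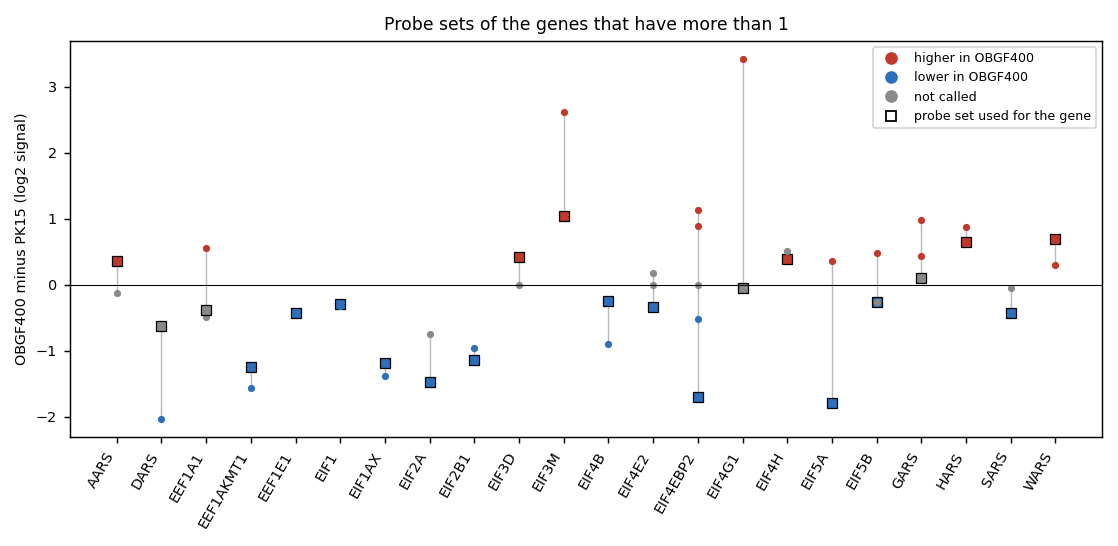
OBGF400 minus PK15 difference in log2 signal for every probe set of the 22 genes that have more than 1, coloured by the call over all 23999 probe sets. Outlined squares mark the probe set used for the gene. EIF4EBP2, EIF5A and EIF5B have called probe sets on both sides of 0, and EIF4G1 spans -0.04 to 3.43.

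Across all 89 probe sets, 27 were called higher and 33 lower, where 20.2% and 21.7% of all probe sets were. Of the 22 genes with several probe sets, 9 had every probe set called in 1 direction (EEF1AKMT1, EEF1E1, EIF1, EIF1AX, EIF2B1, EIF3M, EIF4B, HARS and WARS). A further 3 had called probe sets of opposite sign (EIF4EBP2, EIF5A and EIF5B). The corresponding shares over all genes with several probe sets were not computed, so neither count is read as particular to these genes.

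Of 6 measured elongation genes, EEF1G was higher in OBGF400, 3 were lower and 2 were not called (median difference -0.40.) On hybridization controls 4 were higher with 1 lower, and on poly-A controls 0 higher with 6 lower. The complex that recharges eEF1A with GTP did not shift as a unit. EEF1G, its structural subunit, was higher by 0.29 (95% interval 0.23 to 0.36, adjusted p = 0.000523), EEF1B2, an exchange subunit, differed by -0.09 and was not called, and EEF1D, the other exchange subunit, was lower by -0.97 (adjusted p = 0.00126). Relative to EEF1D, EEF1G shifted by 1.26, again unchanged by a shift of whole arrays. EEF1E1, which sits in the multi-synthetase complex, was lower by -0.42 (adjusted p = 0.00716). EEF1AKMT1, a methyltransferase of eEF1A, was at 9.75, 9.86 and 9.76 in OBGF400 and at 10.98, 11.06 and 11.05 in PK15. It was 2.36-fold lower with no overlap (-1.24, adjusted p = 2.84e-05), and its other probe set differed by -1.57.

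EEF1A1, which brings charged tRNA to the ribosome, was at 9.48, 9.54 and 9.26 in OBGF400 and at 9.61, 9.89 and 9.93 in PK15. The arrays did not overlap, but the difference of -0.39 was not called (adjusted p = 0.0527). Its other 2 probe sets differed by -0.49, not called, and by 0.56, called higher over all probe sets (adjusted p = 0.045). The array also carries 3 control probe sets for this factor, left out of the fit, which cover the 3′, middle and 5′ parts of the transcript. They were near the top of the scale in both lines: the middle one averaged 15.33 ± 0.05 on the OBGF400 arrays and 15.27 ± 0.04 on the PK15 arrays (SD, n = 3). The differences were 0.09, 0.05 and 0.05 for the 3′, middle and 5′ sets, values that a signal so near the top of the scale may compress. Put in place of the probe set used, the middle one gave an adjusted p of 0.244.

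Cytosolic synthetases chosen by the symbol rule moved little and in both directions. Of 12 measured, 5 were higher in OBGF400, 2 lower and 5 not called (median difference 0.02), and none changed by 2-fold. On hybridization controls 11 were higher with 0 lower, and on poly-A controls 0 higher with 8 lower. WARS, the tryptophan enzyme, which interferon induces in many cells, was highest in the order of differences. It was at 9.80, 9.53 and 9.46 in OBGF400 and at 8.84, 8.88 and 8.99 in PK15, a difference of 0.70 (95% interval 0.41 to 0.98, adjusted p = 0.00422). The enzymes for histidine, HARS (0.65, adjusted p = 0.0195), asparagine, NARS (0.58, 0.000523), methionine, MARS (0.44, 0.0281), and alanine, AARS (0.35, 0.00321), were also higher. All 5 fell below 0 under poly-A control scaling, at -0.50 to -0.16. HARS was no longer called when OBGF400 replicate 1 (0.57) or 2 (0.67) was dropped, nor MARS when either of these (0.43, 0.39) or PK15 replicate 3 (0.49) was, which left 3 synthetases higher without either OBGF400 array.

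The lower cytosolic enzymes were those for serine, SARS (-0.42, adjusted p = 0.0127), and aspartate, DARS (-0.62, adjusted p = 0.0423). The dimmer SARS probe set differed by -0.05 and was not called (adjusted p = 0.976 over all probe sets). DARS was at 9.25, 9.09 and 9.21 in OBGF400 and at 10.12, 9.85 and 9.45 in PK15, and its call was lost when any array but PK15 replicate 3 was left out (-0.66 to -0.47). Its dimmer probe set differed by -2.04 (adjusted p = 0.00553 over all probe sets). Under hybridization control scaling SARS was at 0.40 and DARS at 0.20. The enzymes for leucine, lysine, arginine, valine and glycine, LARS, KARS, RARS, VARS and GARS, were not called, with differences from -0.29 for VARS to 0.10 for GARS. The 2 dimmer GARS probe sets were called higher over all probe sets, by 0.98 (adjusted p = 0.00328) and 0.44 (0.000695). The 95% intervals of LARS (-0.24 to 0.12), KARS (-0.28 to 0.13) and RARS (-0.30 to 0.05) leave out a 2-fold change at the deposited scaling.

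Of 6 mitochondrial synthetases, 2 were lower in OBGF400, 0 higher and 4 not called. On hybridization controls 4 were higher with 1 lower, and on poly-A controls all 6 were lower. IARS2, the mitochondrial isoleucine enzyme, was at 8.30, 8.29 and 8.41 in OBGF400 and at 10.12, 9.89 and 10.21 in PK15. It was 3.34-fold lower without overlap, a difference of -1.74 (95% interval -1.99 to -1.49, adjusted p = 0.000132). FARS2, the phenylalanine enzyme, was lower by -0.66 (adjusted p = 0.00542) and at 0.16 under hybridization control scaling. WARS2 (-0.33) and EARS2 (-0.11), for tryptophan and glutamate, were not called, and VARS2 and NARS2, for valine and asparagine, were at the floor in both lines.

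Genes that work with these factors were read from 8 lists. Their counts stand beside 23.9% of all genes called higher and 36.8% lower, and 31.3% and 50.1% of genes above the median signal. Of 8 mitochondrial translation factors, 7 fell in OBGF400 and 1 rose, the median difference being -1.17, and on hybridization controls 4 fell and 1 rose. The release factor MTRF1 (-1.93), the rescue factor MRPL58 (-1.85) and the recycling factor MRRF (-1.64) fell most, and MTRF1L, a release factor, was higher (0.90, a call shared by 1 of its 2 probe sets). Of 6 genes that modify eIF5A and eEF2 or supply the polyamines for it, 5 were lower and 0 higher, the median difference being -0.998, and hybridization control scaling gave 3 lower and 3 higher. The spermine synthase SMS was at 7.99 ± 0.23 on the OBGF400 arrays, against 12.09 ± 0.15 on the PK15 arrays (SD, n = 3), differing by -4.10 (adjusted p = 4.11e-05). DPH5, of the diphthamide pathway, and the spermidine synthase SRM were lower by -1.98 and -1.52. The hypusine-forming enzyme DHPS, which acts on eIF5A, was not called (0.08, adjusted p = 0.409).

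Of 9 further synthetase subunits, partners and editing or amidation factors, 7 were lower and 1 higher, the median difference being -0.72, and hybridization control scaling gave 2 lower and 2 higher. GATB (-2.56 as deposited, -1.17 with 32 added to the linear values) and GATC (-1.80), of the mitochondrial enzyme that makes glutaminyl-tRNA, and DTD1 (-1.12), which removes D-amino acids from tRNA, fell most. The synthetase subunits FARSA and FARSB, outside the symbol rule, were lower by -0.88 and -0.72. On hybridization controls they were at -0.06 and 0.11, not called. AIMP2, a scaffold of the multi-synthetase complex, was higher (0.93) while its partner AIMP1 was lower (-0.66). Of 9 poly(A)-binding, re-initiation and rescue genes, 2 were higher and 6 lower, the median difference being -0.31, and hybridization control scaling gave 5 higher and 1 lower. The helicase DHX29 (-1.24) and the poly(A)-binding proteins PABPC4 (-1.08) and PABPC1 (-0.92) fell most, and ABCF1, which assists eIF2, was higher by 1.06, as was BZW2 by 0.64.

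**Figure D5:**
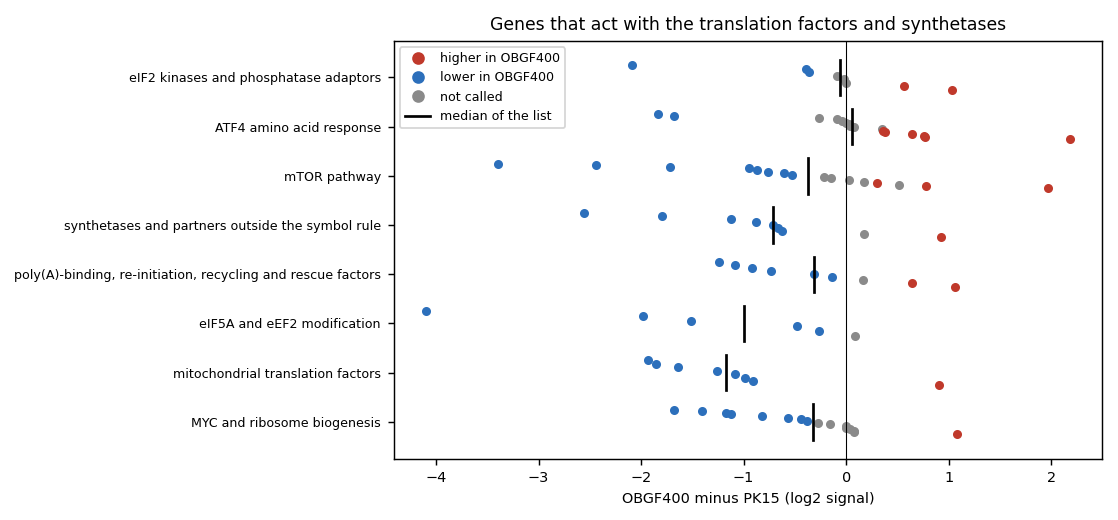
OBGF400 minus PK15 difference in log2 signal of the genes of 8 related lists, coloured by call, with the median of each list as a black line. The mitochondrial translation factors and the eIF5A and eEF2 modification genes lie mostly left of 0, with SMS at -4.10, and the ATF4 list is centred near 0.

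Of the stress pathways that act on these factors, 2 lists had medians near that of all genes at the deposited scaling. They were the ATF4 list and the list of eIF2 kinases and phosphatase adaptors. Of 16 measured genes of the ATF4 amino acid response, 6 were higher, 2 lower and 8 not called (median difference 0.05) (14 higher and 2 lower with hybridization controls, 1 higher and 12 lower with poly-A controls). VEGFA (2.18, a call shared by 2 of its 4 probe sets), the amino acid transporter subunit SLC3A2 (0.77) and the transcription factor CEBPB (0.76) rose most, and the stress factor ATF3 (-1.84) and the serine synthesis enzyme PHGDH (-1.68) fell. ATF4 itself was at 13.74 ± 0.05 on the OBGF400 arrays, against 13.39 ± 0.11 on the PK15 arrays (SD, n = 3). Only 1 of its 2 probe sets had this higher call, a difference of 0.36. The mean of the 2 probe sets differed by -0.19, so the direction of ATF4 depended on the probe set. The asparagine synthetase gene ASNS, a common readout of this response, differed by 0.07 and was not called. Of 8 measured genes of the list of eIF2 kinases and phosphatase adaptors, 2 were higher and 3 lower, the median difference being -0.06 (on hybridization controls 7 higher with 1 lower, on poly-A controls 0 higher with 6 lower). EIF2AK2 was the only eIF2 kinase among them, as EIF2AK1, EIF2AK3 and EIF2AK4 had no probe set of 1 symbol. DNAJC3, a kinase inhibitor, was lower by -2.09 (a call shared by 1 of its 2 probe sets) and EIF2AK2, the kinase that senses double-stranded RNA, by -0.39. The phosphatase subunit PPP1CA (1.03) and the adaptor PPP1R15B (0.57, shared by 2 of its 3 probe sets) were higher. The PPP1CA call was lost in 5 of the 6 fits that left out 1 array and the EIF2AK2 call in 4, with values of 0.88 to 1.31 and -0.46 to -0.31.

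Of 16 measured mTOR pathway genes, 3 were higher and 8 lower (median difference -0.37, 8 higher and 3 lower with hybridization controls). The share lower was 50%, against 36.8% of all genes and 50.1% of genes above the median signal. MTOR, RPTOR and RPS6KB1 were among the listed genes without a probe set of 1 symbol. The kinase RPS6KA1 was lower by -3.39 (-1.57 with 32 added), and the lysosomal Ragulator subunits LAMTOR2 (-2.44) and LAMTOR5 (-1.72, a call shared by 1 of its 2 probe sets) were also lower. TBC1D7, of the TSC complex, was higher by 1.97, the kinase PDPK1 by 0.78 and the mTOR activator RHEB by 0.30. Of 16 measured genes of MYC and ribosome biogenesis, 1 was higher and 8, again 50%, lower (median difference -0.32, 10 higher and 2 lower with hybridization controls). MYC, a transcription factor that drives many of these genes, was at 11.14 ± 0.19 on the OBGF400 arrays, against 12.82 ± 0.20 on the PK15 arrays (SD, n = 3), differing by -1.68 (adjusted p = 0.000633). The methyltransferase FBL (-1.41) and the assembly factor PES1 (-1.17) were lower, and POLR1B, a subunit of RNA polymerase I, was higher (1.08, a call shared by 1 of its 2 probe sets).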

How the data were processed

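Gene expression was measured with Affymetrix porcine arrays, 8 µg of total RNA per pool, 3 OBGF400 and 3 PK15 arrays. The deposited table holds 1 log2 signal per probe set and array. Per the submitters' processing notes the tool was affy. Neither its version nor the background correction or normalization is given in the sources used here. Array means were 5.41 to 5.42, and 25.8% to 27.3% of probe sets lay at the array's minimum. The number of arrays limits the precision.

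After leaving out 124 control probe sets, 23999 were fitted. Of these, 10069 had 1 symbol in the platform annotation, 198 had several and 13732 had none. Each gene was represented by whichever of its probe sets had the highest mean on the 6 arrays. Of the 59 genes, 58 matched the RefSeq table of Sscrofa11.1 by Entrez number, with 58 symbols alike. No sequences are shown, since the tables used here hold none. Differences between the lines were fitted with limma 3.58.1 (lmFit, eBayes, two-sided) in R 4.3.3, adjusted over all genes. Tables and plots were made in Python 3.11.15. In simulated data with the real genes' means and spreads (6765 genes, 50 changed per size), 36% of changes of 0.5, 76% of 1, 98% of 2 and 100% of 3 log2 units were called, with 22 false calls. Far fewer genes changed there than the 60.8% called in these data, and the adjustment depends on that share. The simulated rates therefore do not give the sensitivity here. The smallest p that an exact permutation of 3 and 3 arrays can reach is 0.1.

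The members, lists and alternatives were chosen with earlier results of these data known. Every member could be named, values on each array were given for called members differing by at least 1 unit and for EEF1A1, EIF4E and EIF2S1, and up to 3 called genes in each direction were named per related list. ATF4, ASNS, DHPS, AIMP1, FARSA and FARSB were named outside that rule, for their role or after their values were seen. Alternatives were 4 normalizations, 2 filters on dim genes, 2 variance models, adding 32 to the linear values, the mean of probe sets, an adjusted p under 0.01, a block on replicate number and leaving out each array. The control probe set for EEF1A1 and scaling on the lys and phe controls were added after seeing the data.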

Additional observations from a re-analysis of the deposited data

Results flagged for a closer look

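Probe sets whose annotation lists a factor gene together with another gene were left out of the comparisons, since they cannot be assigned. There were 6 of them, and 3 had OBGF400 arrays all above the PK15 arrays. Of the 2 that list EIF2S3, the eIF2 gamma subunit, and LOC100624149, 1 was at 11.53, 11.21 and 11.24 in OBGF400, while each PK15 array gave 2.25, so that it differed by 9.07. The other was lower in OBGF400, at 11.67 ± 0.04, than in PK15, at 13.65 ± 0.16 (SD, n = 3), differing by -1.98. The 2 probe sets that list EIF4EBP3 and ANKHD1 were both higher in OBGF400, by 0.78 and 1.26. The 2 that list EIF3G and SLC12A8 differed by -0.04 and 0.03 and were not called. They are listed here because they lie outside the genes compared.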

How the results depend on the processing

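Quantile normalization, median centring, the 2 filters, the 2 variance models and adding 32 reversed no called difference and ended no call as deposited (the uncalled EIF3A and EIF3H changed sign under quantile normalization, to -0.02 and -0.05, and VARS2 under median centring, to 0.02, and some settings added calls of EEF1A1, EIF4A3, VARS or WARS2), and left every count of calls within 1.5 times. The control scalings moved most results. With hybridization control scaling, members called were 40 higher and 10 lower, synthetases 15 higher and 1 lower, and all genes 4487 higher and 1259 lower, and the median difference became 0.57 for members, 0.75 for synthetases and 0.55 for initiation factors. With dap and thr poly-A control scaling the counts were 2 and 48, 0 and 14, and 763 and 5219, and the medians -1.11, -0.92 and -1.13. Hybridization control scaling reversed DARS (0.20), EARS2 (0.71), EEF1A1 (0.43), EEF1B2 (0.73), EEF1E1 (0.40), EIF1 (0.53), EIF1B (0.22), EIF2B4 (0.25), EIF2S1 (0.61), EIF2S2 (0.53), EIF3K (0.15), EIF4A1 (0.44), EIF4A3 (0.57), EIF4B (0.58), EIF4E (0.62), EIF4E2 (0.49), EIF4G1 (0.78), EIF4G3 (0.30), EIF5B (0.56), FARS2 (0.16), KARS (0.75), LARS (0.76), RARS (0.70), SARS (0.40), VARS (0.53), VARS2 (0.82) and WARS2 (0.49), and ended the calls of EEF1D, EIF3E and EIF3I. Poly-A control scaling reversed AARS (-0.50), EEF1G (-0.56), EIF3A (-0.82), EIF3D (-0.44), EIF3H (-0.84), EIF3L (-0.31), EIF4G2 (-0.25), EIF4H (-0.46), EIF6 (-0.24), GARS (-0.75), HARS (-0.20), MARS (-0.41), NARS (-0.28) and WARS (-0.16), and ended the calls of EIF3M and EIF4A2. The shift of VARS2, at the floor in both lines, is the scaling itself. These reversals follow from the shift of whole arrays. With lys and phe, added after seeing the data, 14 members were higher and 13 lower, 5 synthetases higher and 1 lower, and the medians were -0.0489 for members, 0.13 for synthetases and -0.0728 for initiation factors. Of the calls as deposited, 16 were then lost and none reversed. Why the controls disagree, dap and thr with lys and phe included, was not tested. Averaging the probe sets of each gene moved the median of members to -0.12, turned EIF4G1 to 1.69, which was called, and ended the calls of EIF4E2, EIF4EBP2, EIF4H and EIF5B. It also added a call for 1 other member, in the direction it had as deposited. At a threshold of 0.01, 3 synthetases were higher and 2 lower. Leaving out 1 array gave 13 to 15 members higher and 23 to 28 lower, 3 to 5 synthetases higher and 3 to 4 lower, and medians of -0.26 to -0.21 for members, -0.10 to -0.02 for synthetases and -0.33 to -0.25 for initiation factors. Same-numbered arrays of the lines had correlations of their deviations of 0.04 to 0.08, above the -0.08 to 0.01 of differently numbered arrays. Whether the replicate number marks a shared batch was not tested. With the replicate number as a block, 13 members were higher and 24 lower, and 3 synthetases were higher and 3 lower. Low signals limit EARS2, VARS2 and NARS2.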
